A study of Mus musculus with 13 samples.

Results

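The T-box genes encode transcription factors that share a DNA-binding domain, the T-box, and 10 of them were followed here in mouse embryonic stem cells: Eomes, Tbr1, Tbx1, Tbx2, Tbx3, Tbx4, Tbx5, Tbx15, Tbx18 and Tbx20. They were chosen by name, as the rows of the promoter table that carry one of these symbols and the called regions that overlap those rows. This gave 10 of 55270 genes, 18 of 77527 promoter rows and 10 of 57909 regions, 1 region per gene. At 5 of the 10 regions, those of Tbr1, Tbx1, Tbx3, Tbx15 and Tbx18, H3K27me3 was lower in cells without SAFB and SAFB2, by 0.19 to 0.37 on the log2 scale. Falls made up 1.88% of all regions tested but 40.8% of shared regions of 10 kb or more, the length class of 9 of the 10. The other 5 did not pass the test, and none of the 9 promoter rows that could be tested did.

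H3K27me3, trimethylation of lysine 27 on histone H3, is laid down by Polycomb repressive complex 2 and marks silent developmental genes. In embryonic stem cells it covers many genes of lineage-specific transcription factors, whose promoters are often rich in CpG dinucleotides. T-box genes are such genes: many are switched on later, when mesoderm, endoderm, heart, limb or cortex form. Tbx3 is also known from pluripotent cells, and no expression was measured here. Several T-box genes lie next to a related gene because an ancestral cluster was duplicated.

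The cells were a male CAST/B6 embryonic stem cell line with a recombination-mediated cassette exchange (RMCE) site at Rosa26. They were either WT or double knockout (DKO) for Safb and Safb2, which encode nuclear proteins that bind RNA. All groups, controls included, had doxycycline for 3 days and were crosslinked in 0.6% formaldehyde. ChIP-seq for H3K27me3 covered 5 WT and 4 DKO libraries, and ChIP-seq for total H3, the histone background, covered 2 WT and 2 DKO libraries. Of the DKO libraries, only replicate 1 for H3K27me3 is from clone 4, the rest being from clone 13, so clone and library cannot be told apart there. Among the WT libraries for H3K27me3, the names of replicates 1, 4 and 5 begin alike and those of replicates 2 and 3 differ. Whether WT thus mixes clones is not stated. No label says whether the replicates of a group were grown apart. The p-values below therefore reflect the variation among these particular libraries, part of which may be technical.

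Promoter rows held 798466 to 1427771 counts per H3K27me3 library, and regions held 1818647 to 3134799 per H3K27me3 library and 525847 to 736566 per total H3 library. Safb and Safb2 themselves gave no check of the genotype, because the 2 Safb rows held 4 counts and the Safb2 row 3 counts over the 9 H3K27me3 libraries. The level of chromosome 11 relative to the other chromosomes was -0.27 to -0.050 on the log2 scale in WT and 0.047 to 0.32 in DKO, and Tbx2 and Tbx4 lie on it. Its part in the values of those genes cannot be told apart from genotype, and values with an offset for it are given below. At the promoters of the 12 housekeeping genes the mean H3K27me3 over the 9 libraries stood between 0 and 5.49 CPM, the unit used throughout (read counts relative to the TMM-scaled library total). Of the 10 promoters of pluripotency genes 5 were too low to test. The other 5 were not all low. In WT the means were 108 CPM at Klf4, 41.5 at Dppa3, 35.9 at Esrrb, 33.4 at Tfcp2l1 and 9.11 at Utf1. A row that overlaps other rows can hold few counts inside a marked region, as given below for Tbx20. The overlap of the housekeeping and pluripotency rows is not given here, so few counts there do not show a low mark.

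RefSeq promoter sequences (build GRCm38.p6, 250 bases before to 50 bases after a start site) were found for 6 of the 10 genes, 7 sequences in all, and all 7 lie inside the regions described below. The 4 printed here belong to genes on which the results turn: Tbx1, with the densest region, Tbr1, which fell with it, Tbx20, whose promoter row held almost no counts inside a marked region, and Tbx4, the only gene with a higher mean in DKO. Each is given 5′ to 3′ on the strand of its gene, with every CpG in capitals.
Tbx1, chr16:18588850-18589149, minus strand: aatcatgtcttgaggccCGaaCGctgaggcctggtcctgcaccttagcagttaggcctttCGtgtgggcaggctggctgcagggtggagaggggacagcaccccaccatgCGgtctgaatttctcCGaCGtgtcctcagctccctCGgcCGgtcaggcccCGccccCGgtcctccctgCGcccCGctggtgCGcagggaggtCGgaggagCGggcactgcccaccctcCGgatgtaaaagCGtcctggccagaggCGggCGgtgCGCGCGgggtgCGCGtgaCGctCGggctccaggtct
Tbr1, chr2:61804203-61804502, plus strand: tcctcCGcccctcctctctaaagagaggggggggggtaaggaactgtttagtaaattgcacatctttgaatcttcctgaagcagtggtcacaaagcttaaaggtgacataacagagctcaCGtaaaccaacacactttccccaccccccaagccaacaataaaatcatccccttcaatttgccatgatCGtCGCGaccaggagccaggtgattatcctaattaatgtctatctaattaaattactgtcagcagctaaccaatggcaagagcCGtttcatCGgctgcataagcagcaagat
Tbx20, chr9:24774254-24774553, minus strand: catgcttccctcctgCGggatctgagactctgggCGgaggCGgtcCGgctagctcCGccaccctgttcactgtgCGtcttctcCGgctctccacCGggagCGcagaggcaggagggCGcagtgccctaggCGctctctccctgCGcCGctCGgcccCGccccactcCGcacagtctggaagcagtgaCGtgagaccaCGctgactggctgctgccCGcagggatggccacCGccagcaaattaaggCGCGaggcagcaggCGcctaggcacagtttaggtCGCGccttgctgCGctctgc
Tbx4, chr11:85896515-85896814, plus strand: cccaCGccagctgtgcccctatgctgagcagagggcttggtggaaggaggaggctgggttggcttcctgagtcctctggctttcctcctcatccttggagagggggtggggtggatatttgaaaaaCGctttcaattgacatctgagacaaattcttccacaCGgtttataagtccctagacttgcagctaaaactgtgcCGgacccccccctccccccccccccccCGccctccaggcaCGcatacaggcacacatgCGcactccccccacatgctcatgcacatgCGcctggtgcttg
The printed sequences of Tbx1 and Tbx20 hold 26 CpG each, that of Tbx4 holds 8 and that of Tbr1 holds 7. The other Tbx1 sequence (chr16:18590622-18590921), not printed, holds 16. The windows printed for Tbx1, Tbr1 and Tbx4 do not lie at the start site of the main promoter row used below. The median over all 32851 promoter sequences of this length is 7, and 26.5% of them hold 20 or more. The 7 T-box sequences hold between 7 and 26, with a median of 15. The marked regions thus hold T-box promoter sequences with a CpG count at the genome's median as well as far above it. H3K27me3 over these short windows themselves was not counted. Of 4 short motifs searched on both strands, CCAAT occurs in 3 of the 7 sequences against 37.4% of all promoters, TAATTA in 1 (Tbr1, at 2 places) against 5.29%, TATAAA in 1 (Tbx4) against 13.6%, and AGGTGTGA, the core of a T-box binding site, in 0 against 1.28%. These are matches of letters in a window and do not show a bound site.

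The first question is how strongly the T-box loci carried the mark. All 10 regions were in the authors' list shared by both genotypes, and they were long. Tbx15 had the longest region, 29.4 kb, and Eomes the shortest, 8.90 kb, whereas the median of the 28174 shared regions was 1.33 kb. A length of 10 kb or more, reached by 9 of the 10, was found for 534 shared regions, 1.90% of them. The whole gene lay within its region for Tbr1, Tbx1 and Tbx2. The region covered 63.4% of Tbx3, 58.9% of Eomes, 42.8% of Tbx4 and 12.2% to 21.8% of Tbx5, Tbx15, Tbx18 and Tbx20.

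Per kb of region, Tbx1 stood highest in WT, at 53.1 ± 1.56 CPM per kb (SD, n = 5), with a range over libraries of 50.7 to 54.9. Tbx1 is a regulator of the pharyngeal apparatus and the cardiac outflow tract. Tbx2, a repressor active in the heart and the limb, came second, at 41.0 ± 1.64 CPM per kb (SD, n = 5) and a range of 39.2 to 43.2. Neither range overlapped that of the next gene. The other 8 genes followed closely, from Tbx20 at 27.8, Tbx3 at 27.05, Tbx18 at 26.1, Eomes at 26.0, Tbx4 at 24.0, Tbr1 at 23.8 and Tbx15 at 23.0 to Tbx5 at 20.0 CPM per kb in WT. Among these 8, every gene overlapped its neighbour in the order. The median density of shared regions was 9.34 CPM per kb and that of shared regions of 10 kb or more was 24.1, so these 8 genes were near the typical long region and Tbx1 and Tbx2 above it. In DKO the order was the same at Tbx1, Tbx2 and Tbx5, the first, second and last.

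**Figure D1:**
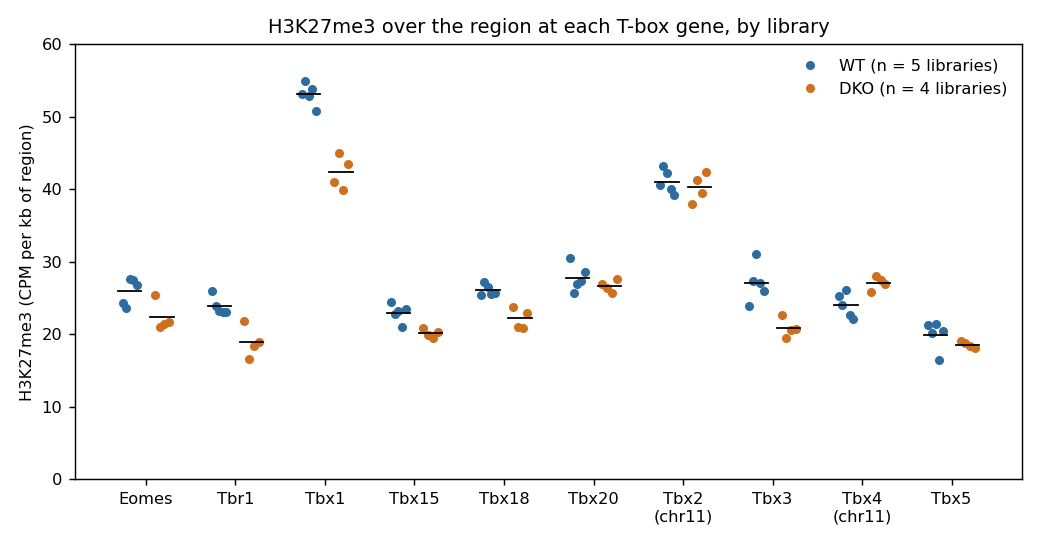
H3K27me3 in CPM per kb of the region at each of the 10 T-box genes (vertical axis, from 0), with 1 point per library and a line at the group mean. Tbx1 and Tbx2 stand above the other 8 in both genotypes, and the DKO points of Tbr1, Tbx1, Tbx15, Tbx18 and Tbx3 lie below all WT points.

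Against total H3, H3K27me3 was higher at all 10 regions in WT and in DKO, where 7.9% and 7.48% of the 54290 regions tested were called higher by edgeR. In WT the difference ran from 1.28 on the log2 scale at Tbx4 to 2.33 at Tbx1, which is 2.43-fold to 5.02-fold, with a median of 1.74 against -0.040 over all regions. In DKO it ran from 1.16 at Tbx5 to 2.17 at Tbx1, with a median of 1.53 against -0.053. The largest adjusted p of the 10 in WT was 1.62e-25 (edgeR, at Tbx4). These values are relative to the typical region counted, not to the genome. The 10 regions come from the authors' lists of H3K27me3 regions, so a level above total H3 there is no separate evidence of the mark. The ratio was not compared with that of long shared regions.

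The second question is which T-box regions differed between DKO and WT. Of the 10 tested, 0 rose and 5 fell by edgeR's quasi-likelihood test with Benjamini-Hochberg adjustment. Of all 40418 regions tested 4.03% were called, 2.16% as risen and 1.88% as fallen. The same 5 regions, Tbr1, Tbx1, Tbx3, Tbx15 and Tbx18, had every DKO library below every WT library, which held for 3.4% of all regions. An unadjusted p under 0.05 was reached by 7 of the 10, against 19.5% of all regions. The median log2 fold change of the 10 was -0.21, against -0.015 over all regions tested. Length has to be set beside this: of the 534 shared regions of 10 kb or more, 218 fell (40.8%) and 14 rose (2.62%), with a median of -0.18, and off chromosome 11 216 of 494 fell (43.7%). Of the 8 T-box regions off chromosome 11, 5 fell, with a median of -0.23 against -0.19 for the long regions there. A fall was thus frequent among long regions in general and not shown to be particular to T-box genes.

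Tbr1 and Eomes belong to the Tbr1 subfamily, as does Tbx21, given below with the other T-box genes. Tbr1 specifies glutamatergic neurons of the deep cortical layers. Its region (chr2:61802231-61820625) held 476, 441, 426, 423 and 425 CPM in WT replicates 1 to 5 and 401, 306, 339 and 347 CPM in DKO replicates 1 to 4. All DKO values lay below all WT values, with DKO replicate 1 closest to WT. The WT mean was 438 ± 22.4 CPM (SD, n = 5) and the DKO mean 348 ± 39.3 CPM (SD, n = 4). The log2 fold change was -0.33 (SE 0.066, edgeR adjusted p 0.000187). Without DKO replicate 1, the clone 4 library, it was -0.40.

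Eomes drives the formation of mesoderm and endoderm and of intermediate progenitors in the cortex. Its region (chr9:118473962-118482862) held 216, 210, 246, 245 and 238 CPM in WT and 226, 187, 190 and 193 CPM in DKO. The 3 libraries of clone 13 lay below every WT library, while the clone 4 library, DKO replicate 1, lay inside the WT range. The log2 fold change was -0.22 (SE 0.076, edgeR adjusted p 0.0751) and did not pass. It passed without DKO replicate 1 (-0.28, edgeR adjusted p 0.0307), without WT replicate 1 (-0.24, edgeR adjusted p 0.0264) and when the library sets entered as a term (-0.22, edgeR adjusted p 0.0488).

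Tbx1, Tbx15, Tbx18 and Tbx20 belong to the Tbx1 subfamily, as do Tbx10 and Tbx22, also given below. The Tbx1 region (chr16:18577575-18594596) held 903, 935, 898, 917 and 863 CPM in WT and 697, 765, 679 and 739 CPM in DKO. The groups did not overlap, and the lowest WT library stood well above the highest DKO library. The WT mean was 903 ± 26.5 CPM (SD, n = 5) and the DKO mean 720 ± 39.2 CPM (SD, n = 4). DKO minus WT was -0.33 on the log2 scale (SE 0.055, edgeR adjusted p 4.88e-06).

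Tbx15 acts in skeletal development and in patterning of the skin. Its region (chr3:99234298-99263653) held 717, 669, 682, 615 and 689 CPM in WT and 611, 586, 571 and 594 CPM in DKO. The groups came within a few CPM of each other, at WT replicate 4 and DKO replicate 1, without overlap. The log2 fold change was -0.19 (SE 0.058, edgeR adjusted p 0.0382). This call was the least firm of the 5. It was lost by DESeq2 (-0.20, DESeq2 adjusted p 0.0580), and by edgeR it ended when any library but WT replicate 4 or DKO replicate 1 was left out (-0.20 to -0.17).

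Tbx18 marks the epicardium and the sinus horn and is needed for the ureter. Its region (chr9:87725062-87743826) held 477, 512, 498, 479 and 481 CPM in WT and 447, 395, 392 and 432 CPM in DKO. All DKO libraries lay below all WT libraries, and the log2 fold change was -0.23 (SE 0.063, edgeR adjusted p 0.0142). The call ended without DKO replicate 2 or DKO replicate 3 (-0.20 for each).

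Tbx20 is a regulator of the cardiac chambers. Its region (chr9:24767799-24783194) held 469, 396, 414, 420 and 441 CPM in WT and 415, 406, 395 and 424 CPM in DKO. The groups overlapped almost fully, and the log2 fold change was -0.062 (95% interval -0.19 to 0.063, edgeR adjusted p 0.611).

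Tbx2, Tbx3, Tbx4 and Tbx5 form the Tbx2 subfamily, which lies as a pair on chromosome 11 (Tbx2 and Tbx4) and a pair on chromosome 5 (Tbx3 and Tbx5). Tbx3 is a repressor that is also known from pluripotent cells. Its region (chr5:119654922-119679528) held 589, 671, 764, 664 and 639 CPM in WT and 557, 478, 507 and 511 CPM in DKO. The DKO libraries all lay below the WT libraries, although WT varied more here than at the other regions named so far. The WT mean was 666 ± 63.8 CPM (SD, n = 5) and the DKO mean 513 ± 32.3 CPM (SD, n = 4). DKO stood at -0.37 against WT on the log2 scale (SE 0.060, edgeR adjusted p 1.28e-06). This was the largest change of the 10 regions, and 6.28% of the long shared regions off chromosome 11 had a lower value.

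Tbx5, which specifies the forelimb and acts in the heart, is the neighbour of Tbx3. Its region (chr5:119828596-119846291) held 377, 358, 378, 291 and 362 CPM in WT and 338, 332, 324 and 320 CPM in DKO. WT replicate 4 stood below all DKO libraries and the other 4 WT libraries above them. The log2 fold change was -0.10 (95% interval -0.24 to 0.029, edgeR adjusted p 0.395).

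The Tbx2 region (chr11:85824740-85849095) held 987, 1051, 1030, 973 and 956 CPM in WT and 924, 1005, 960 and 1031 CPM in DKO. The groups overlapped, and the log2 fold change was -0.028 (95% interval -0.13 to 0.076, edgeR adjusted p 0.806). Tbx4, which acts in the hindlimb and the lung, lies next to it. The Tbx4 region (chr11:85884118-85899098) held 379, 360, 392, 338 and 331 CPM in WT and 387, 421, 411 and 403 CPM in DKO. Of the 4 DKO libraries 3 stood above every WT library, and the log2 fold change was 0.17 (SE 0.065, edgeR adjusted p 0.106), which did not pass. It passed without WT replicate 1 (0.19, edgeR adjusted p 0.0463).

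Both genes have to be read beside their chromosome. Of 2720 regions on chromosome 11, 533 rose (19.6%) and 5 fell, with a median of 0.41, and the 40 long shared regions there had a median of 0.18. Tbx2 was higher than 5.04% of the chromosome 11 regions and Tbx4 higher than 17.3%. Among the 40 long ones Tbx2 was higher than 10% and Tbx4 higher than 47.5%. With an offset that sets the level of chromosome 11 equal in all libraries, both passed as lower in DKO, Tbx2 at -0.42 (edgeR adjusted p 2.86e-10) and Tbx4 at -0.22 (edgeR adjusted p 0.0379), so the direction at Tbx4 turned with this choice. A genotype difference at these genes and the level of the chromosome cannot be told apart from the scaled counts alone.

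**Figure D2:**
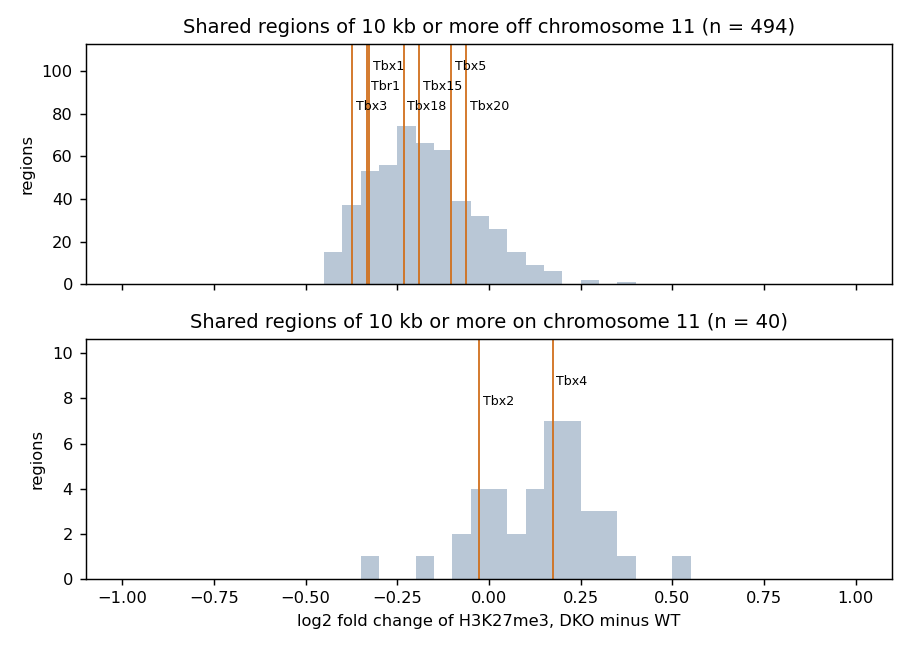
Number of shared regions of 10 kb or more (vertical axis) by log2 fold change of H3K27me3, DKO minus WT (horizontal axis), for 494 regions off chromosome 11 and 40 on it. Vertical lines mark the 9 T-box regions of this length, which spread over both distributions, with Tbx3 at -0.37 toward the low end of the first.

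The falls were also compared within the library sets, since 4 H3K27me3 libraries carry the word Old or New in their labels, and no source used here gives their meaning. In the 5 libraries without either word, Tbx3 stood at -0.39, Tbr1 at -0.35, Tbx1 at -0.33, Tbx18 at -0.24 and Tbx15 at -0.21, and the first 3 passed. In the 4 libraries with Old or New the values were -0.35, -0.30, -0.32, -0.21 and -0.16, and Tbx3 and Tbx1 passed. The direction was the same in both sets for each of the 5. At these regions every DKO library lay below every WT library, so a split of the same libraries could hardly give another direction. The shared direction is therefore no separate check.

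The size of the change also moved with the scaling. With an offset for a trend with level in each library, Tbx3 remained lower in DKO (-0.19, edgeR adjusted p 0.0293), Tbr1 (-0.17), Tbx1 (-0.11) and Tbx18 (-0.065) did not pass, Tbx15 stood at 0.0056, and Tbx4 (0.33) and Tbx2 (0.21) passed as higher. The split among the 10 was then 2 higher and 1 lower, in place of 0 and 5. With library totals in place of TMM it was 1 higher (Tbx4, 0.24) and 3 lower, with Tbx15 (-0.13) and Tbx18 (-0.17) no longer past the threshold. Tbx3 passed as lower under all 19 alternatives run.

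**Figure D3:**
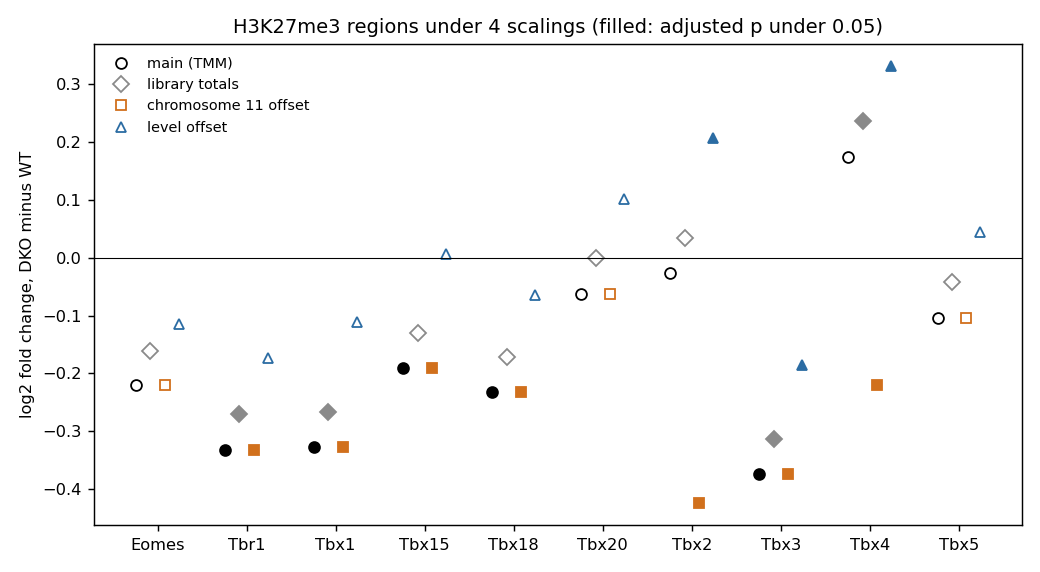
Log2 fold change of H3K27me3, DKO minus WT (vertical axis), at the 10 T-box regions under TMM, library totals, a chromosome 11 offset and a level offset, filled where the edgeR adjusted p was under 0.05. Tbx3 is filled and below 0 under all 4 scalings, while Tbx4 lies below 0 only with the chromosome 11 offset.

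A ratio of neighbouring genes within each library does not depend on a single scale factor for that library. A trend with level, as in the level offset, can still change such a ratio, and its part was not tested. The Tbx2 and Tbx4 regions lie 35.0 kb apart and the Tbx3 and Tbx5 regions 149 kb apart. For 100 counts at Tbx2, Tbx4 held 38.4, 34.2, 38.0, 34.8 and 34.6 in WT and 41.8, 41.9, 42.9 and 39.1 in DKO. No DKO library overlapped WT, with means of 36.0 ± 2.01 (SD, n = 5) and 41.4 ± 1.61 (SD, n = 4). The two-sided exact permutation test over 126 groupings gave p 0.0159, the smallest it can give, and 0.140 after adjustment over the 11 ratios and shares computed in this way, so the difference failed the correction. A single ratio at the smallest possible p cannot pass this adjustment, so the failure says little about the difference. The unadjusted p says little as well, because the ratios were chosen after seeing the data. How often other neighbouring regions differ without overlap was not counted.

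For 100 counts at Tbx3, Tbx5 held 64.1, 53.3, 49.4, 43.8 and 56.6 in WT and 60.7, 69.4, 63.9 and 62.7 in DKO. WT replicate 1 reached into the DKO range. The means were 53.5 ± 7.61 (SD, n = 5) and 64.2 ± 3.72 (SD, n = 4), with an exact permutation p of 0.0635, adjusted 0.140. In both pairs the gene with fewer counts, Tbx4 or Tbx5, had the higher mean share in DKO, and neither difference passed the adjustment, whose limit in this design is given above.

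**Figure D4:**
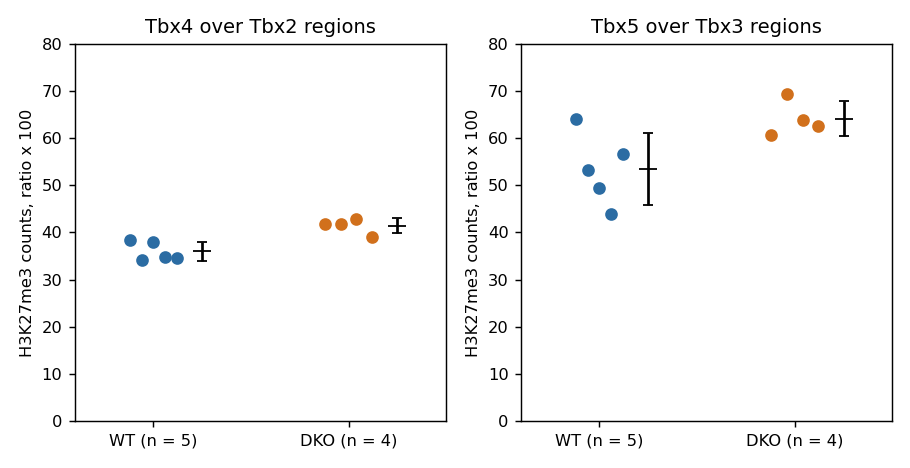
H3K27me3 counts of the Tbx4 region per 100 counts of the Tbx2 region (left) and of Tbx5 per 100 of Tbx3 (right), 1 point per library, with the mean and SD beside them; both axes start at 0. The DKO points lie above all WT points on the left, while WT replicate 1 lies among the DKO points on the right.

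The third question is whether the promoters themselves changed. A promoter row runs from 2000 bp before to 1000 bp after a start site, and a read that fell on more than 1 row was not counted, so a row with few bases of its own holds few counts. This touched Tbx3, Tbx20 and Eomes most. Of the 3001 bp of a row, the Tbx3 rows had 193, 0 and 156 bp of their own, the Tbx20 rows 19 and 0, and the Eomes rows 132 each. Tbx20 therefore held 12 and 0 counts over the 9 libraries although a region of 15.4 kb covers its start site, and it was not tested. Rows of Tbx15, Tbx4 and the first row of Tbx1 had all 3001 bp to themselves. In between, the second row of Tbx1 kept 321 bp, the Tbx2 row 658, the Tbx5 row 1641, each Tbr1 row 1809 and the Tbx18 row 2975. The main row of a gene, the one with the highest mean, was used below.

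Of the 9 main rows tested, 0 passed by edgeR, where 0.628% of 32647 rows did (0.438% as risen and 0.19% as fallen), and 3 had an unadjusted p under 0.05 (10.2% of all rows). DESeq2 also called 0. The values ran from -0.62 at Eomes to 0.11 at Tbx4 with a median of -0.13, against -0.013 over all rows, and 8 of 9 were negative. Over all 14 T-box rows tested, 0 passed and 6 had an unadjusted p under 0.05.

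The Tbx1 main row held 584, 628, 586, 510 and 580 CPM in WT and 459, 538, 395 and 484 CPM in DKO. Only DKO replicate 2 reached into the WT range. The means were 578 ± 42.4 (SD, n = 5) in WT and 469 ± 59.5 CPM (SD, n = 4) in DKO. The log2 fold change was -0.30 (SE 0.096, edgeR adjusted p 0.128). It passed when the library sets entered as a term (-0.29, edgeR adjusted p 0.0107). The Tbr1 main row held 106, 104, 107, 110 and 102 CPM in WT and 98.4, 73.0, 76.9 and 88.3 CPM in DKO. The groups did not overlap there, which 1.61% of all rows showed in this direction, and the log2 fold change was -0.33 (SE 0.14, edgeR adjusted p 0.327).

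The 2 Eomes rows went opposite ways on few reads. The main row held 11.7, 8.25, 14.7, 11.2 and 14.6 CPM in WT and 8.04, 6.63, 11.4 and 5.00 CPM in DKO. The other row held 2.92, 2.75, 4.89, 3.98 and 8.48 CPM in WT and 9.04, 8.84, 9.13 and 8.33 CPM in DKO and was too low to test. The groups overlapped in both rows. The log2 fold change of the main row, -0.62 (SE 0.33, edgeR adjusted p 0.512), came to -0.025 with both rows summed. The main row of Eomes was the one that differed most among the 9, and the 3 rows most like it over the 9 libraries, among 12900 rows of at least 20 CPM, were those of Gm18759, Gm44336 and Gm22796 (Pearson r of log2 CPM 0.95, 0.94 and 0.90, given as a description that shares library and depth).

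The 3 Tbx4 rows lie at 3 start sites inside the region. The first held 140, 137, 143, 113 and 128 CPM in WT and 165, 177, 164 and 158 CPM in DKO, without overlap, as 1.74% of all rows did in this direction. Its log2 fold change was 0.33 (SE 0.12, edgeR adjusted p 0.221). The third row stood at 0.37 (SE 0.13, edgeR adjusted p 0.169). The second, the main row, went from 282 ± 19.5 (SD, n = 5) to 305 ± 13.3 CPM (SD, n = 4), at 0.11 (SE 0.10, edgeR adjusted p 0.775), and turned to -0.17 with the chromosome 11 offset. On chromosome 11, 84 of 2051 rows rose (4.1%) and 0 fell, with a median of 0.29.

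The share of the Tbx4 region's counts that lay in each row was compared as well. The main row held 35.2 ± 2.14% (SD, n = 5) in WT and 32.1 ± 0.745% (SD, n = 4) in DKO, with an exact permutation p of 0.0317 and an adjusted value of 0.140. The first row held 16.4 ± 0.476% (SD, n = 5) and 17.5 ± 0.591% (SD, n = 4), with an exact permutation p of 0.0476, adjusted 0.140. The third row held 14.3 ± 1.70% (SD, n = 5) and 15.7 ± 1.31% (SD, n = 4), with an exact permutation p of 0.270, adjusted 0.495. None of the 3 passed after adjustment, and the groups overlapped in each. At Tbx1 the main row held 28.6 ± 0.910% (SD, n = 5) and 27.7 ± 1.63% (SD, n = 4) of its region, and at Tbr1 10.9 ± 1.07% (SD, n = 5) and 10.3 ± 0.431% (SD, n = 4), with exact permutation p-values of 0.365 each (adjusted 0.502).

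None of the remaining main rows passed. Tbx3 went from 20.7 ± 4.53 (SD, n = 5) to 14.8 ± 4.25 CPM (SD, n = 4), at -0.48 (SE 0.24, edgeR adjusted p 0.482). Tbx15 stood at -0.13, Tbx5 at -0.12, Tbx2 at -0.046 and Tbx18 at -0.025, with edgeR adjusted p-values between 0.774 and 0.968. The Tbx2 row had 658 bp of its own and the Tbx5 row 1641, so neither value covers a whole promoter. At Tbx15 and Tbx18 the region had passed and the row had not. The row's share of the region was 13.3 ± 1.04% (SD, n = 5) in WT and 13.3 ± 0.687% (SD, n = 4) in DKO at Tbx15 (exact permutation p 0.968). At Tbx18 it was 18.6 ± 0.834% (SD, n = 5) and 20.6 ± 1.81% (SD, n = 4), with an exact permutation p of 0.0635, adjusted 0.140.

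**Figure D5:**
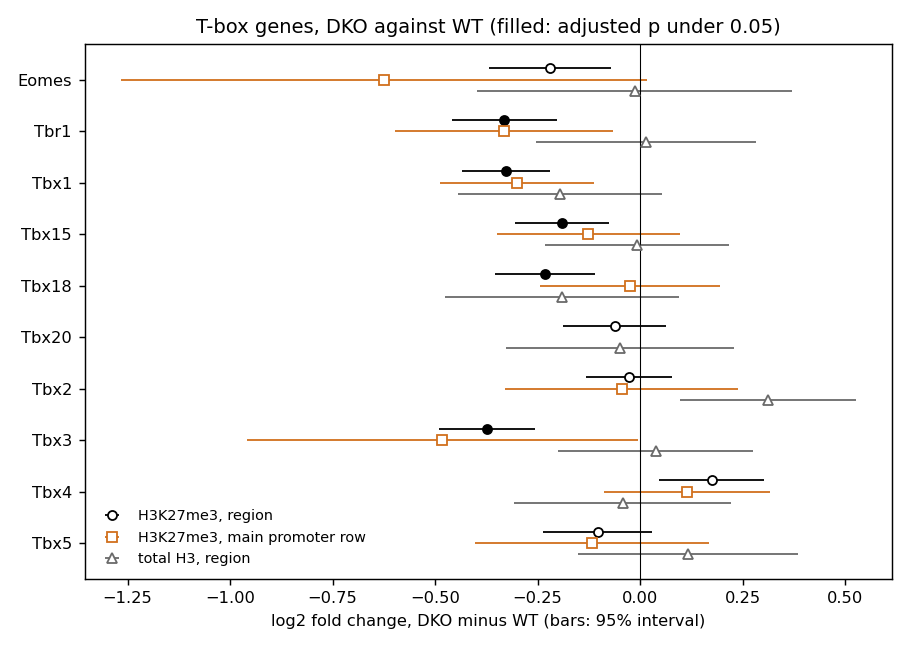
Log2 fold change, DKO minus WT (horizontal axis), for each T-box gene in its H3K27me3 region, its main promoter row and total H3 over the region, with bars of the 95% interval. Filled symbols passed at an edgeR adjusted p under 0.05, and only 5 regions did; Tbx20 has no promoter value because its row was not tested.

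The fourth question is whether total H3 moved at the same regions. Of the 10 T-box regions 0 passed by edgeR and 0 by DESeq2, where 0.0211% of 18938 regions passed by edgeR (0.00528% as risen and 0.0158% as fallen). An unadjusted p under 0.05 was reached by 1 of the 10, against 6.17% of all regions. The median was -0.011, against -0.00011 over all regions. That 1 was Tbx2, which held 411 and 452 CPM in WT and 557 and 520 CPM in DKO, without overlap (17.2% of all regions in this direction, and 17.6% in the other), a log2 fold change of 0.31 (SE 0.11, edgeR adjusted p 0.636). The chromosome 11 regions had a median of 0.31 in total H3. Tbx4, on the same chromosome, held 262 and 312 CPM in WT and 250 and 301 CPM in DKO, at -0.043.

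At the 5 regions where H3K27me3 fell, total H3 overlapped between the groups. Tbx3 held 383 and 318 CPM in WT and 347 and 367 CPM in DKO, at 0.038 (95% interval -0.20 to 0.28). Tbr1 held 262 and 276 CPM in WT and 255 and 285 CPM in DKO, at 0.014 (95% interval -0.25 to 0.28). Tbx1 held 312 and 385 CPM in WT and 321 and 294 CPM in DKO, at -0.20 (95% interval -0.44 to 0.052), and ran from -0.32 to -0.0024 when 1 library was left out. Tbx15 stood at -0.0085 (95% interval -0.23 to 0.22) and Tbx18 at -0.19 (95% interval -0.48 to 0.095), the latter running from -0.29 to -0.046 when 1 library was left out. With 2 libraries per group these intervals are wide, and at Tbx1, Tbx15 and Tbx18 they reach the size of the H3K27me3 difference.

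The change of H3K27me3 beyond that of total H3, tested as an interaction over all 13 libraries, passed at 0 of the 10 regions by edgeR, where 1 of 54290 regions (0.00184%) did as lower and 0 as higher. An unadjusted p under 0.05 was reached by 3 of the 10, against 6.71% of all regions, Tbx3 at -0.43, Tbx2 at -0.36 and Tbr1 at -0.36. At Tbx2, H3K27me3 itself stood at -0.028 and total H3 at 0.31, so its value does not show a lower mark. The median was -0.22, against -0.0087 over all regions, and 9 of 10 values were negative, Tbx4 being positive at 0.20. The share of negative values over all regions was not counted. Nor was the interaction compared with that of long shared regions, among which falls of H3K27me3 were frequent. DESeq2 was not run for this test.

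The other T-box genes were looked at for comparison: T (Brachyury, of the early mesoderm), Tbx6, Tbx10, Tbx19, Tbx21, Tbx22 and Mga. Of their 7 main promoter rows 0 passed by edgeR and 0 had an unadjusted p under 0.05. T had the highest level of the 7, at 349 ± 20.3 CPM in WT (SD, n = 5) and 313 ± 20.9 CPM in DKO (SD, n = 4), with a log2 fold change of -0.16. Tbx21, a regulator of T helper cells that lies on chromosome 11, went from 141 to 156 CPM (0.15). Tbx6 (0.16), Tbx10 (0.16), Tbx19 (-0.12), Tbx22 (0.045) and Mga (0.11) stood under 35 CPM. Only T, Tbx21 and Tbx22 had a region, at -0.051 for T, 0.083 for Tbx21 and 0.15 and 0.35 for the 2 short regions of Tbx22, and none passed.

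Genes that act with the T-box factors were counted at their main promoter rows. Of the heart list (Nkx2-5, Gata4 and others) 11 of 13 were tested, of the limb list 13 of 16 (15 in the table), of the mesendoderm list 13 of 15 and of the cortical neuron list 12 of 14, and 0 passed in any of them by edgeR. An unadjusted p under 0.05 was reached by 2, 4, 5 and 4 of them, against 10.2% of all rows tested. The medians were -0.071 for heart, -0.18 for limb, 0.070 for mesendoderm and -0.17 for cortical neurons, against -0.13 for the T-box rows. The largest values in each were Isl1 (-0.70) and Hand2 (-0.31) for heart, Shh (-0.32) and Pitx1 (-0.32), a hindlimb factor, for limb, Cer1 (0.58) and Foxa2 (-0.50) for mesendoderm, and Bcl11b (-0.52) for cortical neurons. Foxa2, a factor of the endoderm, went from 109 to 77.4 CPM without overlap (edgeR adjusted p 0.0605). Pitx1 went from 375 to 300 CPM, also without overlap (edgeR adjusted p 0.126). Of all rows tested, 1.61% lay without overlap in this direction and 1.74% in the other. Further genes of these lists lay without overlap too, in either direction, so these genes do not stand apart.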

How the data were processed

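H3K27me3 and total H3 ChIP-seq counts were analysed as deposited. The deposited tables hold raw read counts made by the authors, without normalization. The column names bear a b6 tag, and no source used here says if reads from the CAST as well as the B6 allele were counted, so a level may be that of 1 allele or of both. Per the file headers the promoter counts came from featureCounts 2.0.3, run unstranded and with no read assigned to several rows. The submitters' processing notes name Bowtie2, MACS2, bedtools, Subread and featureCounts without roles, and build mm10. No source used here gives how regions were called. The authors' region lists give deposited coordinates only, used to sort regions into shared and specific ones. Chromosome M and the Gm21748 row, 38 rows in all, were left out, which left 77489 promoter rows, 36042 of them free of overlap.

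Tables were fitted whole with edgeR 4.0.16 in R 4.3.3 (quasi-likelihood F test, two-sided, TMM, filterByExpr with minimum count 10 and total 15, no covariate) with a threshold of 0.05 on the Benjamini-Hochberg adjusted p. An SE is the log2 fold change divided by the root of F, and 95% intervals are 1.96 SE to either side. Total H3 and H3K27me3 libraries were joined by region in 1 fit of 13 libraries for the ratio and the interaction. Ratios within a library were tested by exact permutation, and were chosen after seeing the data, as was the set of rows used for shares (1500 bp of their own or more). DESeq2 1.42.0 was an alternative. Code was tested on simulated data. Python 3.11.15, pandas 2.3.3, scipy 1.17.1 and matplotlib 3.10.9 were also used. RefSeq tables (GRCm38.p6) gave gene ends, sequences and the genes at a region.

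All 10 genes and the 7 other T-box genes are named, and from each partner list the 2 largest changes, except that 1 gene of the cortical neuron list is not reported here. For the T-box gene that changed most at its main row, the 3 most alike rows are named. The members and lists were chosen with earlier results of these data known. Counting error alone limits the precision at low rows, and reads without molecular identifiers are not independent molecules.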

Additional observations from a re-analysis of the deposited data

Results flagged for a closer look

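In 60 groups of 4 or 5 libraries, for the main promoter row and the region of each gene and for the ratios and shares within a locus, the highest or lowest library was compared with the rest, and 5 stood apart by more than the 95% limit of Dixon's test. Chance puts about 1 in 20 groups past this limit. DKO replicate 1, the clone 4 library, was the high one in 3 of them: the Eomes region at 226 CPM, the Tbx3 promoter row at 21.1 CPM and the Tbx5 promoter row at 89.4 CPM, each above the other 3 DKO libraries. WT replicate 4 was the low one at the Tbx5 region, with 291 CPM. DKO replicate 2 was the high one at the Tbx4 main promoter row, with 325 CPM. None of these 5 features passed the test between DKO and WT.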

How the results depend on the processing

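The number of T-box regions called, 5, was 3 in the libraries without Old or New, 2 in those with either word, 3 when WT was limited to replicates 1, 4 and 5, whose library names begin alike, and 3 with the level offset. It ran from 3 to 6 when 1 library was left out, with 3 without DKO replicate 2 or DKO replicate 3, and from 4 to 7 in the other alternatives. With the replicate number as a block it was 4, since Tbx15 did not pass (-0.18). The numbers do not pair the libraries. To see this, the group mean was taken off each log2 value, and only what remained was correlated, not whole profiles. Same-numbered WT and DKO libraries then correlated at -0.028 to 0.072 over regions and -0.0093 to 0.033 over promoter rows. None, 0 of 4 DKO libraries, correlated best with its own number. DKO replicate 4 matched WT replicate 5 best in both, and both are labelled New. DKO replicate 3 (Old) matched WT replicate 4 (Old) best over promoter rows but WT replicate 1 over regions. With the library sets (Old, New or neither) as a term, 6 T-box regions were called. Pairing by these words was not tested otherwise. The cause of the changes in the number of regions called was not tested, beyond the smaller number of libraries in some. Promoter calls stayed at 0 except for 1 with the library set term. Total H3 and the interaction stayed at 0 calls, and H3K27me3 over total H3 at 10, under the alternatives run for them.

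Directions turned mostly for values near 0, but also for the Tbx15 region, which had been called at -0.19, and for Tbx4 (0.17 in its region and 0.11 in its promoter row). Among promoter rows, Tbx18 came to 0.0028 with library totals, 0.044 without Old or New, 0.050 with WT limited to replicates 1, 4 and 5 and 0.048 with the level offset, and ran from -0.079 to 0.031 when 1 library was left out. Tbx2 came to 0.20 and Tbx15 to 0.029 with Old or New only, Tbx2 ran from -0.19 to 0.039 when 1 library was left out, and Tbx4 came to -0.17 with the chromosome 11 offset. Among regions, Tbx2 came to 0.034 with library totals, 0.053 with Old or New only, 0.0050 with WT limited to replicates 1, 4 and 5 and 0.21 with the level offset, and ran from -0.049 to 0.0030 when 1 library was left out. Tbx4 came to -0.22 with the chromosome 11 offset, and Tbx5 to 0.044, Tbx15 to 0.0056 and Tbx20 to 0.10 with the level offset. For total H3, leaving out 1 library moved Eomes over -0.036 to 0.040, Tbr1 over -0.065 to 0.084, Tbx1 over -0.32 to -0.0024, Tbx18 over -0.29 to -0.046, Tbx3 over -0.069 to 0.19, Tbx4 over -0.19 to 0.12, Tbx15 over -0.14 to 0.19 and Tbx20 over -0.21 to 0.15. In the interaction, Tbx18 came to 0.014 and Tbx20 to 0.054 with library totals, and leaving out 1 H3 library moved them over -0.19 to 0.030 and -0.23 to 0.15.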
